A study of Xenopus tropicalis with 10 samples.

Results

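The nuclear-encoded subunits of the mitochondrial respiratory chain and of ATP synthase were followed through tail regeneration in *Xenopus tropicalis* tadpoles. Members were chosen by name alone, as every gene whose symbol begins like a subunit of complex I (NDUFA, NDUFB, NDUFC, NDUFS and NDUFV), complex II (SDH), complex III (UQCR or CYC1), complex IV (COX4 to COX8) or complex V (ATP5). The rule found 65 of 26550 genes, of which 31 belong to complex I, 4 to complex II, 5 to complex III, 12 to complex IV and 13 to complex V. Of the 65 genes, 2 carry the name pattern without being subunits, namely SDHAF2, an assembly factor that helps attach the flavin of complex II, and ATP5S, whose RefSeq symbol is dmac2l. COX7A2L was counted with complex IV by its name, though in mammals it is not known as a standard subunit. Subunits whose rows carry no such symbol, and the subunits encoded by mitochondrial DNA, were not analysed here.

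All samples are labelled as stage 40 tadpoles, and RNA was read from bulk tissue in 10 libraries. A first amputation gave the whole tail group, with 2 libraries, and a second piece cut at once from beside that wound gave the 0 hpa group, also with 2 libraries (hpa, hours post amputation). Regenerating tail was sampled later, with 1 library each for 6 and 15 hpa and 2 libraries each for 24 and 72 hpa. No uncut tail was sampled at the later times, so time after amputation and age cannot be told apart. The labels do not say which strain was used or how many tails entered a library, so the spread between 2 libraries of a group may be technical, and the 6 and 15 hpa groups have 1 library each here. The study's design speaks of duplicates throughout, and these 2 libraries are the deepest, with 128768239 and 121670034 gene reads against at most 58467586 in the others; whether either merges replicates is not stated.

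The respiratory chain sits in the inner mitochondrial membrane. Complexes I and II feed electrons to coenzyme Q, complex III passes them on to cytochrome c and complex IV to oxygen, and the proton gradient built by complexes I, III and IV drives ATP synthase, complex V. Muscle is rich in mitochondria and is a main tissue of the tadpole tail. In bulk tissue, fewer cells of a mitochondria-rich type and less RNA per cell cannot be told apart.

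Values are gene reads divided by the library's size factor, called normalised reads here. Libraries held 15966579 to 128768239 gene reads, and 3 reads were worth 0.852 to 7.29 normalised reads. All 65 members passed the filter (a minimum of 10 normalised reads, reached in 2 or more libraries), which left 17896 genes for testing. A gene was called when limma's test on log2(value + 1), adjusted over all 17896 genes by Benjamini-Hochberg, was under 0.05. Fold changes are log2 differences on that scale. The comparisons at 6, 15, 24 and 72 hpa against 0 hpa share the same 0 hpa libraries, and those at 72 hpa share the 72 hpa libraries.

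The members stood lowest at 72 hpa, and the 2 libraries of that group differed widely. Relative to the 0 hpa mean of each gene, the median of the 65 members was 0.11 and −0.15 on the log2 scale in whole tail replicates 1 and 2, −0.04 and 0.04 in the 0 hpa pair, −0.30 in the 6 hpa library, −0.09 in the 15 hpa library, −0.13 and −0.49 in the 24 hpa pair, and −0.86 and −0.23 in the 72 hpa pair. The same median over all 17896 tested genes lay between −0.02 and 0.02 in every library. The 72 hpa replicate 1 library was the lowest of the 10 for 56 members (86.2%), against 11.8% of all tested genes. Whole tail replicate 1 was the highest of the 10 for 39 members (60.0%), against 14.5% of all tested genes. The member median at 72 hpa therefore appears below with and without replicate 1. Fold changes of single genes at 72 hpa use both libraries unless stated.

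**Figure D1:**
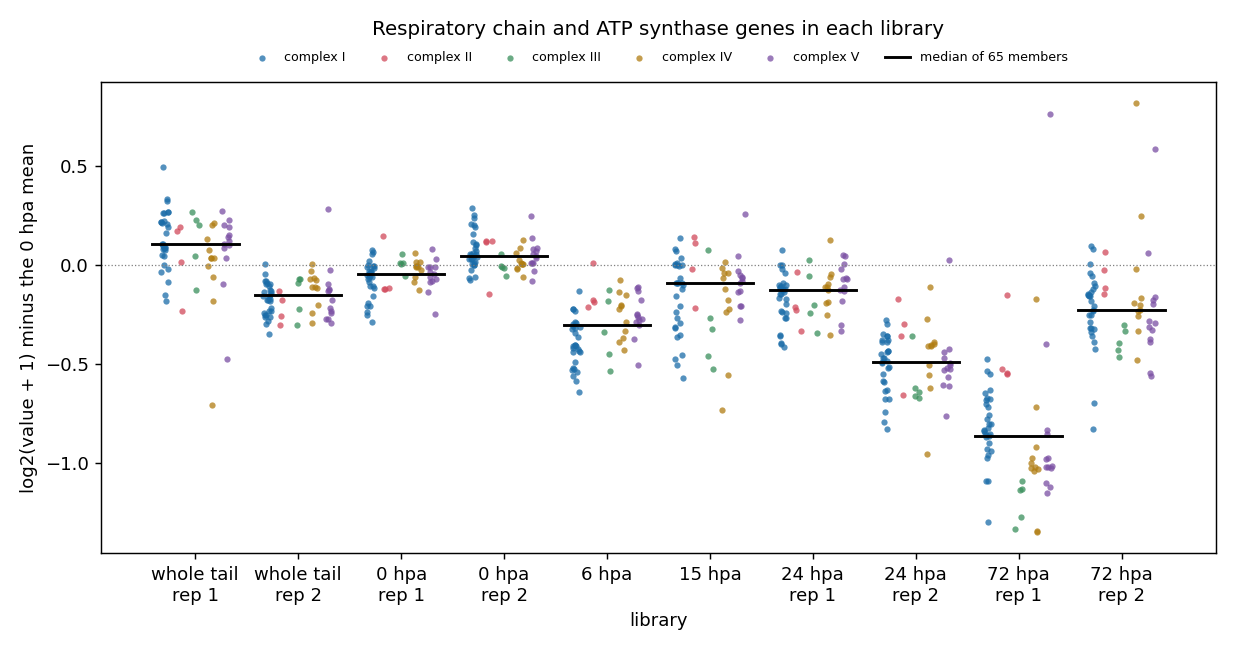
Level of each of 63 members (points, coloured by complex; COX6A2, which had few reads, and 1 other member are not drawn) in each of the 10 libraries, as log2(value + 1) minus the gene's 0 hpa mean; black bars are the median of all 65 members. The bar lies at −0.86 in 72 hpa replicate 1 and at −0.23 in replicate 2.

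Within each duplicated group other than 0 hpa, nearly all members moved the same way from one library to the other. Replicate 2 was lower than replicate 1 for 60 of 65 members in the whole tail (median log2 difference −0.29) and for 63 of 65 at 24 hpa (median −0.34). At 72 hpa replicate 2 was higher for 63 of 65 (median 0.66, a factor of 1.58), and at 0 hpa for 51 of 65 with a median of only 0.09. Over all tested genes these medians were −0.03 to −0.005. Members are therefore not replicates of each other, and a count of members lower or higher can follow from the shift of 1 library.

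The summed level of skeletal muscle markers moved the same way within these 3 pairs. The list found 26 genes, none of them at 0 in any library. Their sum was 754490 and 122488 normalised reads in the whole tail, 327403 and 307854 in the 0 hpa pair, 474565 in the 6 hpa library, 410036 in the 15 hpa library, 489225 and 183170 in the 24 hpa pair, and 139947 and 708840 in the 72 hpa pair. The library with more muscle marker reads was also the one with the higher member median in the whole tail, 24 hpa and 72 hpa pairs, though not in the 0 hpa pair. That exception depends on summing. By the median of the muscle markers relative to the 0 hpa mean, the 0 hpa pair also went the members' way, at −0.03 and 0.03. The other pairs kept their direction. Across groups the order was not the same, since 72 hpa replicate 2 had more muscle marker reads than both 0 hpa libraries but a member median 0.23 below the 0 hpa mean, and the 6 hpa library likewise had more muscle marker reads and a member median 0.30 below it. Other marker sums followed the members as well: those of red blood cells in all 4 pairs, at 229100 and 186049 normalised reads in the whole tail, 442479 and 1461599 in the 0 hpa pair, 181320 and 119060 in the 24 hpa pair, and 43278 and 106697 in the 72 hpa pair. Ionocyte marker sums did so in 3 pairs, leukocyte sums in 2, neuron and notochord sums in 1 each and epidermis sums in 0. Some sums were nearly equal, at 26953 and 27419 for ionocytes at 72 hpa and 6575 and 6581 for neurons at 24 hpa. The counts also depend on the measure. Ionocyte medians, for example, went against the members in the whole tail (−0.73 and −0.61) and at 72 hpa (−1.67 and −2.04). Neuron medians went with them at 24 hpa (−1.16 and −1.64) and at 72 hpa (−2.43 and −2.07). With 4 pairs such agreement singles out no cell type, and the part of any of them in the members' levels was not tested.

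**Figure D2:**
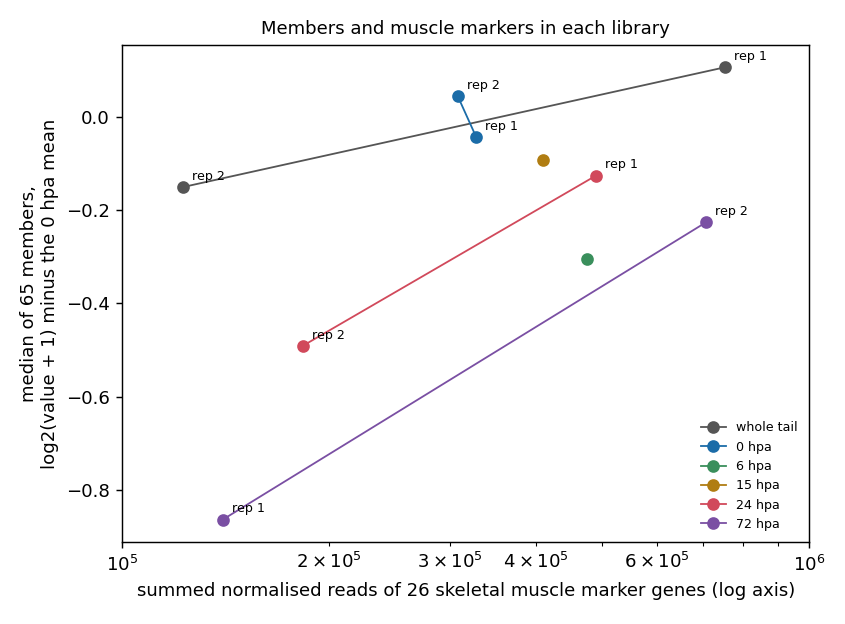
Median of the 65 members in each library (vertical axis, log2(value + 1) minus the 0 hpa mean) against the summed normalised reads of 26 skeletal muscle marker genes (horizontal log axis); lines join the 2 libraries of a group. In the whole tail, 24 hpa and 72 hpa pairs the library further right is also higher. By the median of the muscle markers, not drawn, the 0 hpa pair went this way too. Red blood cell marker sums, not drawn, followed the members in all 4 pairs.

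Between the whole tail and 0 hpa, no member differed by the test. The median log2 fold change of the 65 members was 0.03 (median standard error 0.27), with 26 lower and 39 higher. limma called 0.0% of all tested genes in this comparison, and 0 members had an unadjusted p under 0.05, against 7.95% of all tested genes. edgeR and DESeq2 likewise called 0 members here and at 6, 15 and 24 hpa against 0 hpa. The comparison is of a whole tail with tissue beside the cut, so it also compares tail regions.

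At 6 hpa 63 of 65 members had lower values than the 0 hpa mean, with a median log2 fold change of −0.30 and a median standard error of 0.33. All 31 complex I genes were lower (median −0.41), as were all 13 genes of complex V (median −0.26). The 6 hpa library lay below both 0 hpa libraries for 62 members, where 34.8% of all tested genes did so. None of the 65 was called, and none had an unadjusted p under 0.05, against 5.83% of all tested genes. limma called 0.0% of all tested genes here.

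At 15 hpa the member median was closer to 0 hpa, at −0.09, and 50 of 65 had lower values, 43 of them below both 0 hpa libraries, where 38.4% of all tested genes lay. None was called, against 0.363% of all tested genes, and 0 had an unadjusted p under 0.05, against 13.5%. Some members stood below the others in this library. After subtracting each gene's 0 hpa mean and the library's member median, COX6B1 stood at −0.64 and NDUFA1, of complex I, at −0.48. COX6C stood at −0.46, UQCRC2 at −0.43 and NDUFB9 at −0.41. COX6B1, a small complex IV subunit on the intermembrane side, measured 9603 normalised reads at 15 hpa, against 14635 and 17469 at 0 hpa and 13892 at 6 hpa (log2 fold change −0.74, SE 0.33 for 15 against 0 hpa, adjusted p 0.389 by limma). COX6C, another complex IV subunit, measured 4509 against 6905 and 6346 (log2 fold change −0.55). UQCRC2, a core protein of complex III, measured 9483 against 14214 and 13127, and NDUFB9, an accessory subunit of complex I, 3739 against 4932 and 5727. Each lay below both 0 hpa libraries, in a single library and short of the threshold.

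At 24 hpa all 65 members had lower mean values than at 0 hpa, with a median log2 fold change of −0.30. By complex the medians were −0.31 for I, −0.27 for II, −0.44 for III, −0.28 for IV and −0.29 for V. For 41 of 65 both 24 hpa libraries lay below both 0 hpa libraries, against 25.8% of all tested genes. None was called, against 0.967% of all tested genes, and NDUFC1 alone of the 65 (1.54%) had an unadjusted p under 0.05, against 16.8% of all tested genes (log2 fold change −0.57, SE 0.23, adjusted p 0.273 by limma). The median was −0.13 without 24 hpa replicate 2 and −0.49 without replicate 1.

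At 72 hpa 63 of 65 members had lower mean values than at 0 hpa, and 1 of them, NDUFC1, passed the test. The median log2 fold change of the 65 was −0.57 (median standard error 0.27), against 0.02 over all tested genes. The call rate is set against 6.4% of all tested genes called in either direction and 3.53% called lower. For 48 of 65 both 72 hpa libraries lay below both 0 hpa libraries, against 26.6% of all tested genes, and 21 of 65 (32.3%) had an unadjusted p under 0.05, against 24.1% of all tested genes. The interquartile range of the members' fold changes was 0.28, against 0.88 for all tested genes. It was narrower than that of all genes in every comparison, with 0.13 against 0.53 for 0 hpa against the whole tail. At 24 hpa against 0 hpa it was 0.17 against 0.76. The closeness of the members is therefore not particular to 72 hpa, and the part of read level in it was not tested. Without 72 hpa replicate 1 the median was −0.23, and without replicate 2 it was −0.86.

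**Figure D3:**
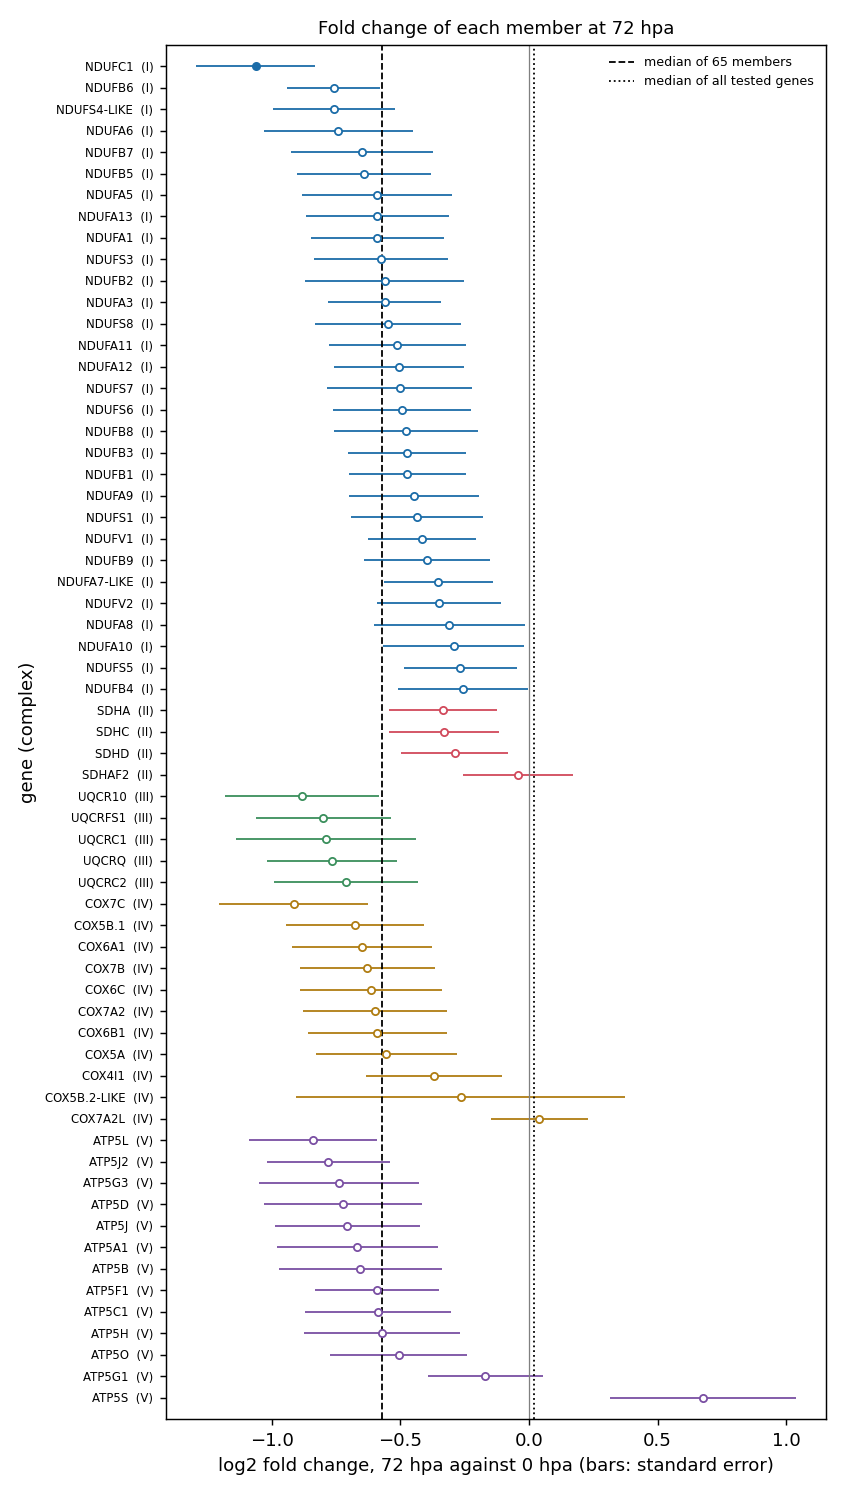
Fitted log2 fold change at 72 hpa against 0 hpa of each of 63 members (COX6A2 and 1 other member not drawn), grouped and coloured by complex, with standard errors as bars; the filled point is NDUFC1, the member that passed the test. Most points lie near the member median of −0.57, COX7A2L and SDHAF2 lie near 0, and ATP5S lies to the right.

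By complex, the median log2 fold change at 72 hpa against 0 hpa was −0.50 for complex I, −0.31 for complex II, −0.79 for complex III, −0.61 for complex IV and −0.66 for complex V. In 72 hpa replicate 2 alone, the medians relative to the 0 hpa mean were −0.18, −0.07, −0.39, −0.21 and −0.29 in the same order. The differences between complexes were not tested. Both 72 hpa libraries lay below both 0 hpa libraries for 23 of 31 genes of complex I, 0 of 4 of complex II, 5 of 5 of complex III, 9 of 12 of complex IV and 11 of 13 of complex V, to be read against the 26.6% of all tested genes above; with 4 or 5 genes such counts carry little.

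Complex I, NADH dehydrogenase, takes electrons from NADH. NDUFC1, a small accessory membrane subunit, measured 1515 and 1441 normalised reads in the whole tail, 1744 and 1691 in the 0 hpa pair, 1297 in the 6 hpa library, 1252 in the 15 hpa library, 1346 and 989 in the 24 hpa pair, and 697 and 967 in the 72 hpa pair. Both 72 hpa libraries were below all 8 others. It fell from a mean of 1718 at 0 hpa to 832 at 72 hpa (log2 fold change −1.06, SE 0.23, n = 2 libraries a group, adjusted p 0.040 by limma). That call was lost when any 1 of the whole tail, 0 hpa or 72 hpa libraries was left out (adjusted p 0.062 to 0.192, with 0.121 without 72 hpa replicate 1 and 0.075 without replicate 2), and its adjusted p ranged from 0.004 to 0.192 over 17 alternatives.

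NDUFB6, an accessory subunit of the membrane arm, was the next nearest to the threshold. It measured 3562 and 3332 normalised reads in the whole tail, 3193 and 4170 in the 0 hpa pair, 2715 in the 6 hpa library, 2853 in the 15 hpa library, 2775 and 2696 in the 24 hpa pair, and 2060 and 2253 in the 72 hpa pair. As for NDUFC1, both 72 hpa libraries were the lowest of the 10, and they lay close together (log2 fold change −0.76, SE 0.18, adjusted p 0.052 by limma, range 0.012 to 0.186 over 17 alternatives).

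Of the core subunits of complex I named here that carry its redox centres, NDUFS8 lay below the complex I median of −0.50 at 72 hpa. NDUFS7 lay at that median, and NDUFS1, NDUFV1 and NDUFV2 lay above it. NDUFS8, an iron-sulfur subunit, had a log2 fold change of −0.55 (SE 0.28), NDUFS7 −0.50, NDUFV1, the flavin-binding subunit, −0.41 and NDUFV2 −0.35. NDUFS1 lay between NDUFS7 and NDUFV1, and none of these passed the threshold. NDUFV1, as an example, measured 11156 and 10040 normalised reads in the whole tail, 9987 and 10725 in the 0 hpa pair, 8439 in the 6 hpa library, 9708 in the 15 hpa library, 8801 and 7914 in the 24 hpa pair, and 6468 and 9320 in the 72 hpa pair. Its 72 hpa libraries were both below the 0 hpa ones, and replicate 2 lay above both 24 hpa libraries. The accessory subunit NDUFB4 had the difference nearest 0 in complex I (−0.26, SE 0.25).

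Complex II, succinate dehydrogenase, is also an enzyme of the citric acid cycle. SDHA, its flavoprotein, measured 6563 and 5243 normalised reads in the whole tail, 6341 and 5183 in the 0 hpa pair, 5781 in the 6 hpa library, 6188 in the 15 hpa library, 5586 and 5096 in the 24 hpa pair, and 3983 and 5189 in the 72 hpa pair. The 72 hpa replicate 2 value fell inside the range of the 0 hpa libraries (log2 fold change −0.33, SE 0.21, adjusted p 0.376 by limma). The membrane anchors SDHC and SDHD had log2 fold changes of −0.33 and −0.29, and the assembly factor SDHAF2 −0.04.

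Complex III, the cytochrome bc1 complex, was the lowest group at 72 hpa. UQCRFS1, the Rieske iron-sulfur protein, measured 15859 and 12932 normalised reads in the whole tail, 13665 and 13455 in the 0 hpa pair, 12435 in the 6 hpa library, 11265 in the 15 hpa library, 11468 and 8581 in the 24 hpa pair, and 6181 and 9823 in the 72 hpa pair. Both 72 hpa libraries were below both 0 hpa libraries and both whole tail libraries, and replicate 2 lay between the 24 hpa libraries (log2 fold change against 0 hpa −0.80, SE 0.26, adjusted p 0.118 by limma). UQCRC1, a core protein, ranged most widely in this complex, from 3917 in 72 hpa replicate 1 to 10888 in whole tail replicate 1, a factor of 2.78. UQCR10, a small subunit, had the largest difference of the 5 (−0.88, SE 0.30) and UQCRC2 the smallest (−0.71, SE 0.28).

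Complex IV, cytochrome c oxidase, has paired copies of several nuclear-encoded subunits, whose differences from each other were not tested. COX7C, a small subunit with no copy among the members, measured 14259 and 12583 normalised reads in the whole tail, 14834 and 14922 in the 0 hpa pair, 11517 in the 6 hpa library, 12773 in the 15 hpa library, 12500 and 9676 in the 24 hpa pair, and 5840 and 10669 in the 72 hpa pair (log2 fold change at 72 against 0 hpa −0.91, SE 0.29, adjusted p 0.108 by limma). Both 72 hpa libraries were below those at 0 hpa, and replicate 2 again lay between the 24 hpa libraries. COX4I1, COX5A, COX5B.1, COX6A1, COX6B1, COX6C, COX7A2 and COX7B had log2 fold changes between −0.68 and −0.37.

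COX7A2L, known in mammals as a factor of respiratory supercomplexes rather than as a standard subunit of complex IV, varied least of the members whose libraries all held reads. It measured 7027 and 8000 normalised reads in the whole tail, 7924 and 8021 in the 0 hpa pair, 7567 in the 6 hpa library, 7064 in the 15 hpa library, 7462 and 7385 in the 24 hpa pair, and 7091 and 9483 in the 72 hpa pair, a range of 1.35-fold where the median member spanned 2.13-fold. The 72 hpa libraries lay on either side of those at 0 hpa (log2 fold change 0.04, SE 0.19). Its close relative COX7A2 measured 11306 and 11430 at 0 hpa and 5559 and 10132 at 72 hpa (log2 fold change −0.60, SE 0.28).

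The second copies of COX5B and COX6A had low values. COX5B.2-LIKE measured 249 and 280 normalised reads at 0 hpa and 103 and 467 at 72 hpa, which are both the lowest and the highest values of the gene in the 10 libraries. How reads that could fall on either COX5B copy were counted is not stated, so this copy is uncertain. COX6A2, the heart and skeletal muscle form of COX6A in mammals, had 0 to 76 reads a library, with 7 and 48 reads in the whole tail, 7 and 9 at 0 hpa, and 18 and 0 at 72 hpa. Its replicates differed too much for a direction, and 0 reads in 72 hpa replicate 2 allow up to 7.29 normalised reads.

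**Figure D4:**
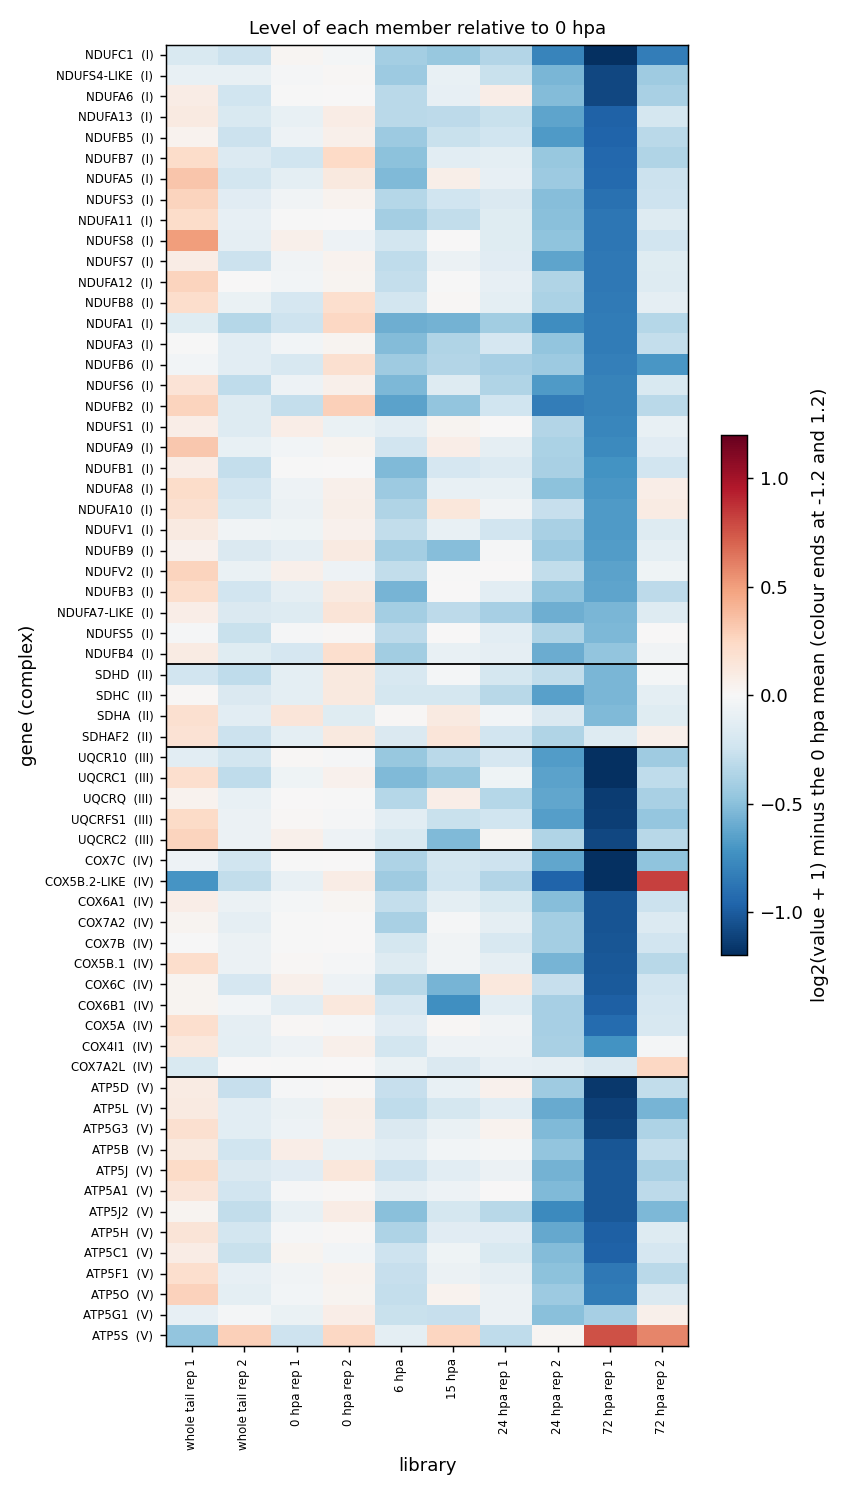
Level of each of 63 members (rows, by complex; COX6A2 and 1 other member not drawn) in each of the 10 libraries (columns), as log2(value + 1) minus the gene's 0 hpa mean; blue is lower, red is higher, and colours end at −1.2 and 1.2. The 72 hpa replicate 1 column is blue for nearly every row, with ATP5S the exception in red.

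Complex V makes ATP from the proton gradient. ATP5B, the catalytic beta subunit, measured 88535 and 68754 normalised reads in the whole tail, 86054 and 76987 in the 0 hpa pair, 74442 in the 6 hpa library, 79714 in the 15 hpa library, 80303 and 58669 in the 24 hpa pair, and 39894 and 66912 in the 72 hpa pair. Both 72 hpa libraries were below both 0 hpa libraries, while replicate 2 was above 24 hpa replicate 2 (log2 fold change against 0 hpa −0.66, SE 0.32, adjusted p 0.257 by limma). ATP5A1, the alpha subunit, and ATP5C1, the gamma subunit of the rotor, had log2 fold changes of −0.67 and −0.59. ATP5L, subunit g of the membrane part, measured 7495 and 8270 at 0 hpa and 3617 and 5342 at 72 hpa (log2 fold change −0.84, SE 0.25, adjusted p 0.092 by limma), the largest difference in the complex.

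ATP5G1 and ATP5G3 encode copies of subunit c, which forms the membrane ring of the rotor. ATP5G3 measured 46284 and 50187 normalised reads at 0 hpa and 22468 and 37179 at 72 hpa, so that both libraries were lower (log2 fold change −0.74, SE 0.31). ATP5G1 measured 9179 and 10258 at 0 hpa and 7367 and 10113 at 72 hpa, so that its groups overlapped (−0.17, SE 0.22). The difference between the copies was not tested, and how reads shared by them were counted is not stated. ATP5S, which is not a subunit by its RefSeq symbol, had higher values at 72 hpa, with 299 and 265 against 148 and 209 at 0 hpa, the 1 member separated upward (27.0% of all tested genes were; log2 fold change 0.68, SE 0.36, adjusted p 0.301 by limma).

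**Figure D5:**
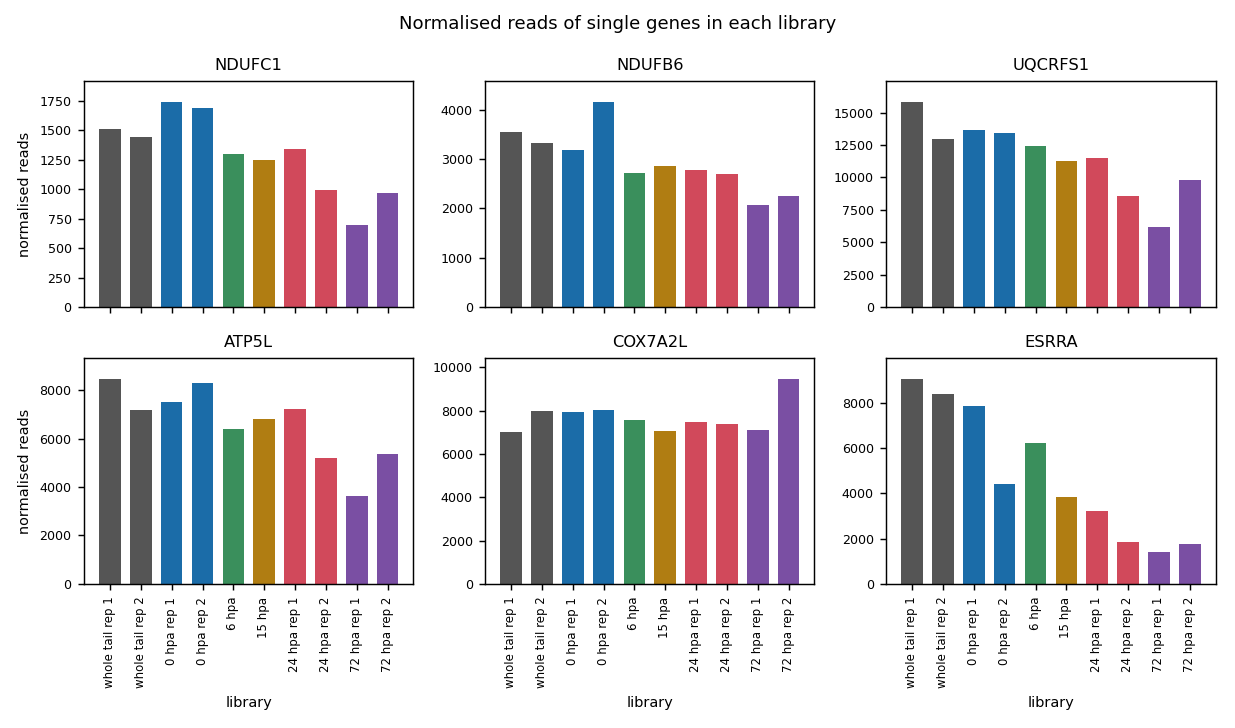
Normalised reads of 5 members and of ESRRA in each of the 10 libraries (bars from 0, coloured by group). NDUFC1 and NDUFB6 are lowest in both 72 hpa libraries, COX7A2L stays between 7027 and 9483, and ESRRA falls from 9069 and 8389 in the whole tail to 1428 and 1786 at 72 hpa.

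Against the whole tail, 62 of 65 members had lower mean values at 72 hpa, with a median log2 fold change of −0.56 and no call by limma, where 9.29% of all tested genes were called. For 41 of 65 both 72 hpa libraries lay below both whole tail libraries, against 27.5% of all tested genes, and for 1 they lay above, against 27.3%. An unadjusted p under 0.05 was reached by 29.2% of the members (19 of 65) and by 27.4% of all tested genes, which are close. UQCRFS1 had the most negative value among members with ample reads (−0.88, SE 0.26, adjusted p 0.079 by limma). Without 72 hpa replicate 1 the member median was −0.21, and without replicate 2 it was −0.91. Against 24 hpa the median was −0.23 with 2 of 65 members separated downward (21.2% of all tested genes), 2 upward (21.4%) and no call by limma, edgeR or DESeq2 (limma called 0.0726% of all tested genes), and 0 members had an unadjusted p under 0.05, against 10.7% of all tested genes. It was 0.085 without 72 hpa replicate 1 and −0.55 without replicate 2. The F test over the 6 groups called no member and 2.27% of all tested genes; NDUFC1 and NDUFB6 (3.08% of members) had unadjusted p under 0.05, against 21.3% of all tested genes, with adjusted p 0.180 and 0.199 by limma.

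Of the 65 members, 4 (6.15%) are flagged in the authors' deposited table as changed, against 19.2% of all 26550 genes. They are NDUFC1, NDUFB6, UQCRFS1 and ATP5L, and all 4 stand in the cluster that the authors' deposited table names C1. It holds 250 genes, which is 0.942% of all genes. The clusters are of changed genes, so the 5089 flagged genes are the nearer background for these 4. DESeq2 run on the recovered reads called the same 4 at 72 hpa, 3 of them against 0 hpa and all 4 against the whole tail. Of all 17896 tested genes it called 2348 and 3140 in these comparisons. The submitters' processing notes also name DESeq2, so the match with the flag is not an independent check.

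As a share of all gene reads, the members took 1.78% and 1.47% in the whole tail, 1.52% and 1.61% in the 0 hpa pair, 1.50% in the 6 hpa library, 1.64% in the 15 hpa library, 1.59% and 1.27% in the 24 hpa pair, and 0.935% and 1.40% in the 72 hpa pair. The 95% Wilson interval of the 72 hpa replicate 1 share was 0.933% to 0.938%, and that of replicate 2 was 1.40% to 1.41%. Intervals this narrow cover counting error only, and the spread between replicates was far wider. Both 72 hpa shares lay below both 0 hpa shares.

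Other mitochondrial genes were read from lists of symbols, and their counts are to be read against all 17896 tested genes. At 72 hpa against 0 hpa limma called 6.4% of these, DESeq2 called 2348, and 24.1% were under 0.05 unadjusted. Against the whole tail limma called 9.29%, DESeq2 called 3140, and 27.4% were under 0.05 unadjusted. Of 29 tested assembly factors of the respiratory chain, which build the complexes without staying in them, limma called none at 72 hpa against 0 hpa (median log2 fold change −0.21; edgeR called 0, DESeq2 1, and 2 were under 0.05 unadjusted), and 1 was called lower against the whole tail. That was UQCC1, an assembly factor of complex III, with 7916 and 6411 normalised reads in the whole tail and 2418 and 3087 at 72 hpa (−1.38, SE 0.32, adjusted p 0.040 by limma, range 0.002 to 0.182 over 17 alternatives). Its call was lost when any 1 of those 4 libraries was left out. limma called none of 24 tested genes for mitochondrial carriers, import and cristae, although 22 had lower values at 72 hpa than at 0 hpa (median −0.43). Of these 24, 3 had an unadjusted p under 0.05 against 0 hpa and 6 against the whole tail. There edgeR called 0 in both comparisons, and DESeq2 called 0 and 1. These list medians also rest largely on 72 hpa replicate 1. Relative to the 0 hpa mean, the assembly factor median was −0.54 in 72 hpa replicate 1 and 0.05 in replicate 2. That of the carrier, import and cristae genes was −0.71 and −0.17.

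Of 20 tested genes of pyruvate dehydrogenase and the citric acid cycle, limma called none against 0 hpa (median −0.37). There edgeR called 0, DESeq2 1, and 7 were under 0.05 unadjusted, against 24.1% of all tested genes. Relative to the 0 hpa mean, the median of this list was −0.68 in 72 hpa replicate 1 and −0.19 in replicate 2. Against the whole tail limma called 2 of the 20, near the 9.29% of all tested genes called there. SUCLG2, a subunit of succinyl-CoA ligase, fell (−1.63, SE 0.37, adjusted p 0.035 by limma), and PDP1, a phosphatase that activates pyruvate dehydrogenase, rose (1.02, SE 0.21, adjusted p 0.029 by limma). Both calls were lost without whole tail replicate 1 (adjusted p 0.161 and 0.129) and without either 72 hpa library, and SUCLG2 also without whole tail replicate 2; over 17 alternatives the adjusted p ranged from 0.001 to 0.161 for SUCLG2 and from 0.002 to 0.129 for PDP1. Of 14 tested genes for mobile electron carriers and coenzyme Q synthesis, ETFDH, which passes electrons from fatty acid oxidation to coenzyme Q, was called lower against the whole tail (−1.22, SE 0.28, adjusted p 0.036 by limma, range 0.002 to 0.163 over 17 alternatives). Its call was lost without whole tail replicate 1, either 0 hpa library or either 72 hpa library. Against 0 hpa limma called none of the 14 (median −0.35; edgeR called 0, DESeq2 1, and 3 were under 0.05 unadjusted). Relative to the 0 hpa mean, their median was −0.53 in 72 hpa replicate 1 and −0.05 in replicate 2.

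Of 20 tested genes for mitochondrial biogenesis and expression of mitochondrial DNA, 1 was called. In this list edgeR called 1 at 72 hpa against 0 hpa and 2 against the whole tail, and DESeq2 called 4 and 5. Unadjusted p was under 0.05 for 5 and 8 of the 20, against 24.1% and 27.4% of all tested genes. ESRRA, an orphan nuclear receptor known in mammals to act on genes of oxidative phosphorylation, measured 9069 and 8389 normalised reads in the whole tail, 7841 and 4426 in the 0 hpa pair, 6221 in the 6 hpa library, 3834 in the 15 hpa library, 3237 and 1838 in the 24 hpa pair, and 1428 and 1786 in the 72 hpa pair. Both 72 hpa libraries were the lowest of the 10. It was called lower at 72 hpa against the whole tail (−2.45, SE 0.34, adjusted p 0.009 by limma), a call lost only without whole tail replicate 1 (adjusted p 0.062, the highest of 17 alternatives). Against 0 hpa (−1.88, SE 0.34, adjusted p 0.027 by limma) the call was lost without either 0 hpa library or either 72 hpa library, with adjusted p from 0.054 to 0.141, and also with no filter (0.091) and with no variance trend (0.058); over the 17 alternatives it ranged from 1.7e-05 to 0.141. The list's median log2 fold change at 72 against 0 hpa was −0.01, with 10 genes lower and 10 higher.

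Markers of other cell types also differed between 72 and 0 hpa, where 6.4% of all tested genes were called. The marker lists were chosen with earlier results of these data known, so the counts are descriptive. Of 15 tested red blood cell markers 14 were called lower, of 14 leukocyte markers 10 higher, and of 20 neuron markers 12 lower and 1 higher. Of 9 ionocyte markers 3 were called lower, of 11 notochord markers 3 lower and 1 higher, of 18 epidermis markers 1 lower and 1 higher, and of 26 muscle markers none. For muscle markers edgeR called 0 and DESeq2 3, and 3 were under 0.05 unadjusted, against 24.1% of all tested genes. Summed muscle markers were 139947 and 708840 normalised reads at 72 hpa, on either side of 327403 and 307854 at 0 hpa. With replicates this far apart, the lack of limma calls does not show an unchanged level. Summed red blood cell markers ranged from 442479 to 1461599 normalised reads at 0 hpa and from 43278 to 106697 at 72 hpa. Summed leukocyte markers ranged from 7276 to 7834 at 0 hpa and from 17574 to 21813 at 72 hpa. The part of these cell types in the members' values was not tested.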

How the data were processed

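The deposited table holds a signal for each of 26550 genes in 10 libraries, which the authors had scaled for depth. Tools named in the submitters' processing notes, with no role given, are TopHat2 2.0.13, Trim Galore 0.3.3, SAMtools 1.1, R 3.2.0, HTSeq and DESeq2. No genome build is named there, and coordinates are left out. Dividing each value by the step between values of its library gave whole reads for 100% of values (tolerance 0.01), and these are the recovered reads.

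limma 3.58.1 (R 4.3.3, with a trend of variance on mean) was fitted to log2(value + 1) for 17896 genes over all 10 libraries and 6 groups, leaving 4 residual degrees of freedom. The 6 and 15 hpa libraries borrow the spread of the other groups. The pseudocount of 1 understates the change of low genes. Alternatives were TMM scaling, other filters and pseudocounts, edgeR 4.0.16 and DESeq2 1.42.0 on the recovered reads, no variance trend, a replicate block, and each replicate left out. The fit was also run on simulated data, in which genes varied independently and no library carried a shift shared by many genes. That run cannot check the fit against shared shifts such as those between the replicates here.

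The members and lists were chosen with earlier results of these data known. Members named are those called, the highest and lowest of each complex at 72 against 0 hpa, catalytic cores and isoform families, and members that stood apart from the others; NDUFB6 and ATP5L were singled out after their values were seen. Members were matched to RefSeq symbols (assembly UCB_Xtro_10.0) for 64 of 65, NDUFC1 being the exception. The values of 1 member are not reported here singly, though it enters the counts and medians.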

Additional observations from a re-analysis of the deposited data

How the results depend on the processing

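The number of members called at 72 against 0 hpa was 1 in the reported fit and 0 to 3 over the alternatives, and NDUFC1, that 1 member, was called in 8 of 17 of them. The count was 2 with TMM scaling, with a filter of 50 normalised reads or with a pseudocount of 8, 3 with DESeq2, and 0 without a filter, without a variance trend, with the replicate block, or with values centred on the members' median in each library, an alternative chosen after seeing the data. Centring takes out any change the members share before the test, so its count says nothing about that shared change. Leaving out each replicate gave 0 to 1. DESeq2 called 4 members at 72 hpa against the whole tail, where it called 3140 of all tested genes. Against 0 hpa, all genes called numbered 1171 with TMM scaling, 1057 with the filter of 50 normalised reads, 1260 with the pseudocount of 8 and 2348 with DESeq2. Leaving out each replicate moved the member median between −0.86 and −0.23 at 72 against 0 hpa, between −0.55 and 0.085 at 72 against 24 hpa, and between −0.91 and −0.21 at 72 hpa against the whole tail. Leaving globin and muscle genes out of the total put the share of reads at 1.68% in 0 hpa replicate 2, 1.53% at 6 hpa and 1.67% at 15 hpa. At 72 against 0 hpa the direction turned for COX5B.2-LIKE with edgeR (0.063) and DESeq2 (0.089), and leaving out each replicate it ranged from −1.35 to 0.82; the same ranges were −0.40 to 0.060 for ATP5G1, −0.17 to 0.25 for COX7A2L and −0.16 to 0.077 for SDHAF2. The cause of these changes was not tested. Whether the replicate numbers pair the libraries is not known. Deviations of same-numbered libraries correlated at −0.13 to 0.27, which cannot settle it with 2 libraries a group. The replicate block left NDUFC1 at an adjusted p of 0.054 by limma. Groups of 1 or 2 libraries limit the precision here, and for COX6A2 the few reads do so too.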
